A study of Mus musculus with 3 samples.

Results

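The surrogate light chain genes Igll1 (ENSMUSG00000075370), Vpreb1 (ENSMUSG00000059305) and Vpreb2 (ENSMUSG00000059280) were followed across 3 RNA sequencing libraries of fetal liver progenitor cells. They were found by symbol, and all 3 were present with an accepted status in each library, out of 38205 gene identifiers listed. The set was chosen by the values themselves, that is, by the lower FPKM of these genes with more transgenic alleles in the same 3 libraries, so their differences between genotypes are descriptions and carry no test. The cells were LSK cells, negative for lineage markers and positive for Sca1 and for c-Kit, sorted from C57Bl/6 embryos at E14.5. The genotypes were wild type (WT, 0 transgenic alleles), hemizygous DNMT3B7 (1 allele) and homozygous DNMT3B7 (2 alleles). DNMT3B7 is a shortened DNMT3B, an enzyme that methylates DNA, and the promoter driving the transgene is not given in the sources used here. Each library held total RNA from a pool of 4 to 5 embryos. With 1 library per genotype there is no replicate check, and each comparison is between libraries.

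The surrogate light chain stands in for the immunoglobulin light chain before a light chain gene has been rearranged. The product of Vpreb1 or Vpreb2 supplies the part that resembles a variable domain, and lambda5, the product of Igll1, supplies the part that resembles a lambda constant domain. Both parts join the mu heavy chain to form the pre-B cell receptor, which tests whether a heavy chain works and drives the expansion of pre-B cells. In the fetal liver the genes are known from B lineage precursors, where the transcription factors E2A and EBF1 activate them. In RNA from a sorted pool, fewer cells that express a gene and less RNA per cell cannot be told apart.

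Values are FPKM divided by 1 common factor for all libraries, a scale on which the mean library sums to about 1000000. High values were more frequent in 11 chromosome segments and on the mitochondrial genome than elsewhere. Many genes with high values also lay elsewhere, but even genes needed in every cell often had values at or close to 0 there. The segments and the mitochondrial genome together hold 1510 genes, called readable here, 825 of them on chromosome 16. Whether the annotation used for counting matched the build of the alignments was not tested, so a value may not hold all reads of its gene. The 3 surrogate light chain genes lie in the chromosome 16 segment. Kit and Ly6a, which encode the sorted surface proteins, lie outside the segments, so the gate could not be checked. The low values implied about 3026010 (WT), 3020720 (hemizygous) and 2316950 (homozygous) fragments on listed genes. The mitochondrial mRNAs made up 57.1%, 53.2% and 45.2% of the summed values in the same order.

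The sequences upstream of the genes are shown because the 3 genes were lower together and because Vpreb1 and Vpreb2 are close copies. Each is written 5′ to 3′ from RefSeq (GRCm38.p6, a build other than the mm9 named for the files), with the letters CAGGTG, the form of E-box bound by E2A, in capitals on either strand (CACCTG when read from the other strand). The Igll1 stretch is the 250 bases before its start, chr16:16863986-16864235 on the minus strand. The Vpreb1 stretch is the 106 bases before its start, chr16:16869256-16869361 on the minus strand. The Vpreb2 stretch is the part of its window that aligns with them, chr16:17980315-17980420 on the plus strand.
Igll1: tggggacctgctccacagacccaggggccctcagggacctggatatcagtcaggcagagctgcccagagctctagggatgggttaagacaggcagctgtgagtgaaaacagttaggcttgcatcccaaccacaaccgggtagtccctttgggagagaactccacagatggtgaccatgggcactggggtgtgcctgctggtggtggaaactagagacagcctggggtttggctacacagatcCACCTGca
Vpreb1: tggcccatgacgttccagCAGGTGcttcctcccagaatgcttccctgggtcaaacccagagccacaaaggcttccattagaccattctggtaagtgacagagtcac
Vpreb2: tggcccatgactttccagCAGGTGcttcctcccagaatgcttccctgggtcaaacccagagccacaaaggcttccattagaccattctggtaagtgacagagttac

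The Vpreb1 and Vpreb2 stretches differed at 2 of 106 bases and were 98.1% identical. CAGGTG was found once in the window of each of the 3 genes, counting 250 bases before and 50 after the RefSeq start and both strands. The same letters were in 20.2% of all 32851 promoter windows of that length. The looser E-box CANNTG, which includes CAGGTG, was found at 3 places in Igll1, 1 in Vpreb1 and 2 in Vpreb2, and in 72.3% of all windows. The palindromic EBF1 motif was in none of the 3 windows and in 0.904% of all windows. The short letters TCCC, part of EBF1 sites, were in each of the 3 and in 95.3% of all windows. TGGGAA, the core read by Ikaros proteins, was found once, in the Vpreb2 window, and in 25.6% of all windows. The windows of the close copies were offset, with CAGGTG at base 163 of the Vpreb1 and base 19 of the Vpreb2 window. Only 156 of the 300 bases of each window aligned, with 3 differences. The TGGGAA of Vpreb2, at base 187, and its second CANNTG lay outside the aligned part. Whether Vpreb1 holds them beyond its window was not tested, so these counts show no difference between the copies. The ETS core GGAA, which lies inside TGGGAA, was in all 3 and in 96.0% of all windows, and TATAAA was in none of the 3 and in 13.6%.

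How far reads of Vpreb1 and Vpreb2 can be told apart depends on where their transcripts differ. Their coding sequences, each of 429 bases with the stop codon, differed at 9 bases (97.9% identity), and the longest stretch without a difference was 196 bases. Of the 50-base stretches of the coding transcripts, Vpreb2 holds 32.5% of the Vpreb1 ones and Vpreb1 holds 32.8% of the Vpreb2 ones. For Igll1 the share was 0%. The 90 coding bases with the most differences, from base 298 to base 387 of the coding sequence in the GENCODE M21 transcripts, are shown with the 5 differing bases in capitals.
Vpreb1: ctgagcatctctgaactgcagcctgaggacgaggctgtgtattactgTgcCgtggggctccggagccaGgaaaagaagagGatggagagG
Vpreb2: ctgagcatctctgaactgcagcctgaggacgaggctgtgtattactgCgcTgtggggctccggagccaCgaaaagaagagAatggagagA
A read that covers none of the 9 differing bases of the coding sequence or another difference of the transcripts can come from either gene, so the values of the Vpreb pair are less certain apart than in sum.

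Igll1 had the highest level of the 3 in every library. Its value was 236 (WT), 190.0 (hemizygous) and 95.5 (homozygous), resting on about 639, 544 and 247 fragments. Vpreb1 stood at 174, 122 and 57.0, from about 399, 295 and 125 fragments. Vpreb2 stood at 107, 88.3 and 39.7, from about 242, 211 and 85.6 fragments. All 3 genes were thus highest in the WT and lowest in the homozygous library, with the hemizygous library between them. Counting intervals (95%, exact Poisson) cover counting error only and assume that all fragments came from the coding transcript. For Igll1 they ran from 218 to 255 (WT), from 174 to 207 (hemizygous) and from 84.0 to 108 (homozygous), with no overlap. For Vpreb1 they ran from 158 to 192, from 108 to 137 and from 47.6 to 68.2, again with no overlap. For Vpreb2 the WT interval of 94.0 to 121 overlapped the hemizygous interval of 76.8 to 101, and the homozygous interval of 31.9 to 49.2 lay below both. The share of all readable genes with intervals apart was not counted, so nothing about the members is read from this separation. Within a library, Igll1, Vpreb1 and Vpreb2 followed each other in this order. The single intervals of Vpreb1 and Vpreb2 overlapped in the homozygous library, but the interval of their ratio there lay below 1 (0.523 to 0.924). The family summed to 517 (WT), 400.4 (hemizygous) and 192 (homozygous).

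**Figure D1:**
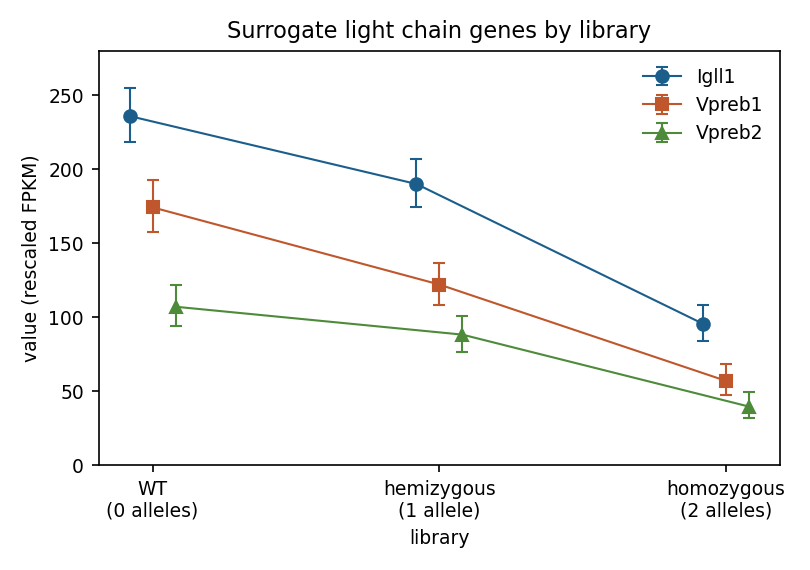
Values (rescaled FPKM) of Igll1, Vpreb1 and Vpreb2 in the WT, hemizygous and homozygous libraries, 1 library each; bars are 95% counting intervals and lines join the values of 1 gene. Igll1 goes from 236 to 95.5, Vpreb1 from 174 to 57.0 and Vpreb2 from 107 to 39.7.

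In the WT library these were well expressed genes among those that could be read. Of 973 readable nuclear genes that reached a value of 1 in some library, Igll1 ranked 184 from the top in the WT library and 372 in the homozygous library. Vpreb1 went from rank 237 to rank 469, near the middle, and Vpreb2 from 340 to 538, below the middle. In the hemizygous library the ranks were 222, 311 and 397 for Igll1, Vpreb1 and Vpreb2. A rank within a library does not depend on how the libraries were scaled to each other.

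Homozygous and WT embryos differ by 2 transgenic alleles. The homozygous value was 40.5% of the WT value for Igll1, 32.7% for Vpreb1 and 37.0% for Vpreb2, which is 2.47-fold, 3.06-fold and 2.70-fold lower. The log2 ratios of value + 1 were -1.30, -1.59 and -1.41. The plain log2 ratios had 95% counting intervals, exact and conditional on the fragments, of -1.52 to -1.09 for Igll1, -1.91 to -1.31 for Vpreb1 and -1.80 to -1.07 for Vpreb2. Vpreb1 and Vpreb2, whose reads overlap, summed to 281 (WT) and 96.7 (homozygous), a plain log2 ratio of -1.54 (-1.77 to -1.32). All 3 genes were at least 2-fold lower (log2 ratio of value + 1 of -1 or less), while 2.27% of the 969 readable genes measured were (2.37% were at least 2-fold higher, and 4.64% passed 2-fold either way). The members were taken up for this contrast, so nothing is read from that count. The median log2 ratio of all measured genes was -0.04, and 90% of them lay between -0.71 and 0.62.

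The size of these differences depended on the scaling between libraries. When each library was brought to the same sum over all genes, which includes the mitochondrial mRNAs, the log2 ratios for homozygous versus WT were -0.87 for Igll1, -1.17 for Vpreb1 and -0.99 for Vpreb2, and the median of all measured genes moved to 0.36. The split of genes past 2-fold went from 23 higher and 22 lower to 47 higher and 10 lower. With each library brought to the same sum over readable nuclear genes the median was 0.03, and each member stayed within its counting interval of the value given first.

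The hemizygous library had 1 transgenic allele and stood nearer to the WT library. Its value was 80.6% of the WT value for Igll1, 70.1% for Vpreb1 and 82.4% for Vpreb2. Igll1 had a plain log2 ratio of -0.31, with a 95% counting interval from -0.48 up to -0.15. That of Vpreb1 was -0.51 (-0.74 to -0.30), and that of Vpreb2 was -0.28 (-0.55 to -0.0062), close to no difference at its upper end. With each library brought to the same sum over all genes, the log2 ratios of value + 1 were smaller. They were then -0.15 for Igll1, -0.35 for Vpreb1 and -0.12 for Vpreb2. The counting intervals above were not computed again for this scaling, so they do not set Igll1 and Vpreb2 apart from WT under it. None of the 3 was 2-fold lower, and 0.929% of the 969 genes measured in this comparison were (2.06% were 2-fold higher, and 2.99% passed either way). Shares of the whole difference between the WT and the homozygous library were taken before any scaling between libraries. The step from 0 to 1 allele made up 32.7% of it for Igll1, 44.5% for Vpreb1 and 27.9% for Vpreb2. On this linear scale the step from 1 to 2 alleles was 94.5 against 45.9 for the first step for Igll1, and 48.6 against 18.8 for Vpreb2. For Vpreb1 the steps were 65.1 and 52.1, too close to rank given the counting interval of the hemizygous value (108 to 137). Both comparisons with WT share the WT library, so a high or low value there enters both.

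Between the hemizygous and the homozygous library, the value of Igll1 was 1.99-fold lower with 2 alleles, that of Vpreb1 2.14-fold and that of Vpreb2 2.23-fold. The log2 ratios of value + 1 were -0.98, -1.09 and -1.13. Vpreb1 and Vpreb2 were past 2-fold on this scale and Igll1 just short of it, with 2.76% of the 978 genes measured at least 2-fold lower, 1.64% at least 2-fold higher and 4.4% past 2-fold either way. With sum scaling over all genes none of the 3 was past 2-fold, at -0.72 for Igll1, -0.82 for Vpreb1 and -0.87 for Vpreb2. The 95% counting intervals of the plain log2 ratios overlapped widely, at -1.21 to -0.77 for Igll1, -1.41 to -0.78 for Vpreb1 and -1.53 to -0.78 for Vpreb2. Of 822 readable genes that reached 5 in some library, 180 (21.9%) were lower at both steps, as these 3 were, and 115 (14.0%) were higher at both.

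Ratios between the members within 1 library need no scaling between libraries. Vpreb1 stood at 0.739 of Igll1 in WT cells (95% counting interval 0.650 to 0.839), 0.643 in hemizygous (0.555 to 0.741) and 0.597 in homozygous cells (0.479 to 0.746). Vpreb2 stood at 0.454 (0.390 to 0.527), 0.465 (0.395 to 0.546) and 0.415 (0.323 to 0.535) of Igll1. Vpreb2 relative to its close copy Vpreb1 stood at 0.615 (0.521 to 0.722), 0.723 (0.604 to 0.867) and 0.696 (0.523 to 0.924), in the same order of libraries. The intervals of each ratio overlapped between all libraries. Overlap of single intervals does not decide whether the balance of the 3 transcripts differed, and such a difference was not tested. The sum of the Vpreb genes relative to Igll1 was 1.19, 1.11 and 1.01 in the WT, hemizygous and homozygous libraries, with intervals of 1.07 to 1.33, 0.978 to 1.25 and 0.837 to 1.22.

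**Figure D2:**
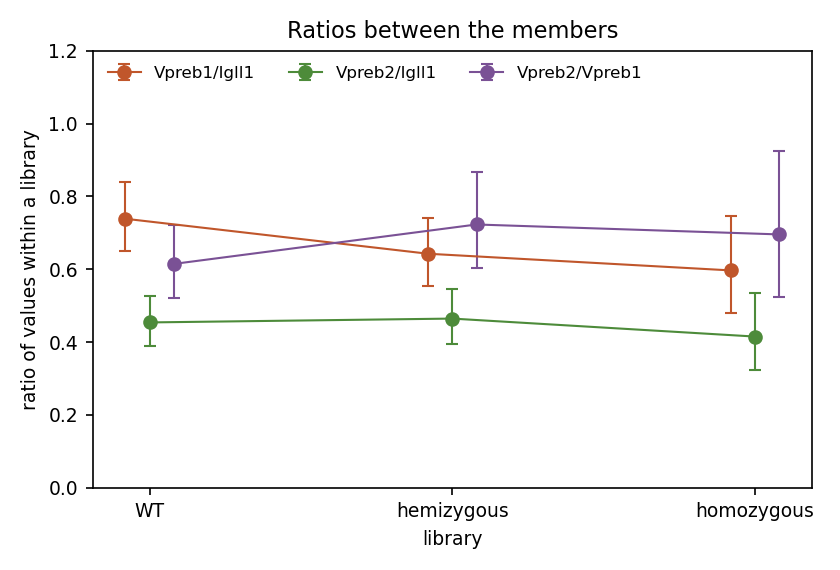
Ratio of the values of 2 members within a library (vertical axis) for the WT, hemizygous and homozygous libraries; bars are 95% counting intervals and lines join the values of 1 pair. Vpreb1 relative to Igll1 goes from 0.739 to 0.597 and Vpreb2 relative to Igll1 from 0.454 to 0.415, with overlapping intervals.

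Of the 3 nearest readable genes on each side of Igll1, Vpreb1 and Vpreb2, none was 2-fold lower in the hemizygous or homozygous library than in the WT library. Of the 969 readable genes measured, 0.929% (hemizygous) and 2.27% (homozygous) were 2-fold lower than in WT. So few neighbours are not set apart from the other genes by this. No other readable gene that reached a value of 1 lay between Igll1 and Vpreb1. Top3b, a DNA and RNA topoisomerase next to Vpreb1, stood at 310.0 (WT), 345 (hemizygous) and 382 (homozygous). Exons of Vpreb1 and Top3b overlap on opposite strands over 108 of the 1199 exonic bases of Vpreb1. The strand setting is not given, and the part of Top3b reads in the Vpreb1 values was not tested. Ppm1f, a protein phosphatase, stood at 125, 145 and 139 in the same order of libraries. On the other side of Igll1, Fgd4, an exchange factor for Cdc42, stood at 68.4, 91.2 and 69.7. Spag6 and Gm16139, which lie nearer, had values below 2 in every library.

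The neighbours of Vpreb2 stayed within 2-fold of their WT values. Slc25a1, the mitochondrial citrate carrier, stood at 383, 388 and 363 in the WT, hemizygous and homozygous libraries. Dgcr6 stood at 116, 113 and 105, and Dgcr2, a membrane protein, at 192, 192 and 176. Dgcr14 had values of 45.3, 43.2 and 39.9, Prodh, which breaks down proline, 55.8, 55.0 and 57.6, and Rtn4r, the Nogo receptor, 8.12, 6.47 and 8.20. The log2 ratios of these 6 genes for homozygous versus WT ran from -0.18 for Dgcr14 to 0.04 for Prodh. For hemizygous versus WT the largest difference among them was -0.29 for Rtn4r, beside -0.28 for Vpreb2 itself. Between Vpreb1 and Vpreb2 lay 27 readable genes that reached a value of 5. Their median log2 ratio for homozygous versus WT was 0.01, the lowest was -0.68 for the pseudogene Gm9974, and the highest was 1.00 for Ccdc116. None of the 27 was 2-fold lower in the homozygous library, and 1, Ccdc116, was 2-fold higher. Of the 807 readable genes that reached 5 in the WT or homozygous library, 13 (1.61%) were 2-fold lower and 11 were 2-fold higher. Of all 31 genes between them that reached a value of 1, 1 was 2-fold lower, beside 2.27% of the 969 genes measured. Counts this small do not set the genes of this stretch apart from the other genes. The lower gene is named here after its values were seen. This was Car15, a carbonic anhydrase, at 4.79 (WT), 2.81 (hemizygous) and 1.24 (homozygous), and its log2 ratio of homozygous to WT was -1.37, with the libraries in the same order as for the members.

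**Figure D3:**
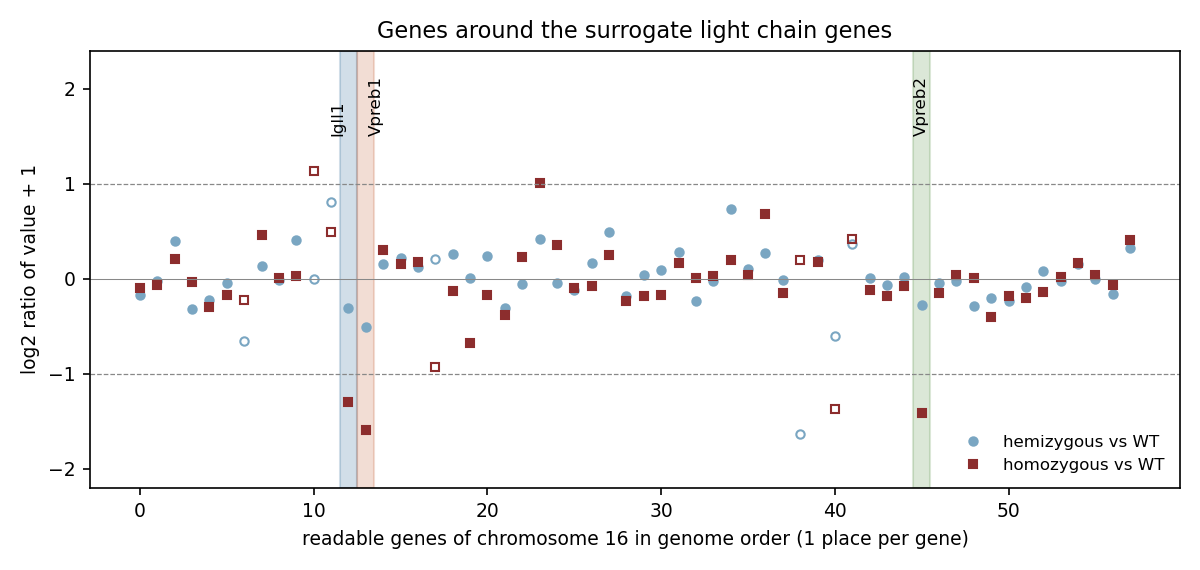
Log2 ratio of value + 1 to the WT library (vertical axis) for readable genes of chromosome 16 in genome order (horizontal axis), hemizygous (circles) and homozygous (squares), with open marks for genes below 5 in all libraries, coloured bands for the 3 members and dashed lines at 2-fold. Igll1, Vpreb1 and Vpreb2 stand at -1.30, -1.59 and -1.41 for homozygous versus WT, and the 27 genes with filled marks between Vpreb1 and Vpreb2 run from -0.68 to 1.00.

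Few other genes of the B lineage could be read. Of 85 genes listed as partners of the pre-B cell receptor, lambda light chain segments, V(D)J recombination genes, early B lineage transcription factors, early lymphoid receptors and mature B cell genes, 17 lay in the readable segments and 12 reached a value of 1. Of these 12, 1 was 2-fold lower in the homozygous than in the WT library and 0 were higher, beside 2.27% and 2.37% of all genes measured, with a median log2 ratio of 0.05 beside -0.04 over all genes measured. In the other 2 comparisons 0 of the 12 passed 2-fold in either direction, beside 2.99% and 4.4% of all genes. Counts this small do not set the lists apart from the other genes. The one lower gene was St6gal1, which adds alpha-2,6-linked sialic acid and forms the ligand of the B cell lectin CD22. It stood at 48.2 (WT), 36.9 (hemizygous) and 19.4 (homozygous), in the same order as the surrogate light chain genes, and its log2 ratio for homozygous versus WT was -1.27.

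Of 10 listed genes of V(D)J recombination 2 could be read, and neither followed that order. Prkdc, the catalytic subunit of the DNA-dependent protein kinase, stood at 10.8 (WT), 14.6 (hemizygous) and 12.6 (homozygous). Lig4, the ligase that closes the joined ends, stood at 12.04, 15.8 and 13.1. Both were highest in the hemizygous library. Runx1, a transcription factor of stem cells and of early B cells, stood at 152, 153 and 132. The lambda light chain segments Iglv1, Iglv2, Iglv3 and Iglc2, which lie in the readable part of chromosome 16, were listed at 0 in all 3 libraries.

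Genes of mature B cells differed among themselves. Cd86, a costimulatory ligand, stood at 81.3 (WT), 59.9 (hemizygous) and 65.3 (homozygous), and Btla, an inhibitory receptor, at 34.4, 32.3 and 29.2. Socs1, an inhibitor of cytokine signalling, stood at 20.2, 17.9 and 23.2, and Bcl6, the germinal centre repressor, at 6.61, 7.23 and 5.97. Cd80, the other costimulatory ligand, was highest in the homozygous library, at 4.46, 2.65 and 6.22. Ciita, which controls MHC class II genes, and Fcer2a, the low-affinity IgE receptor, lay between 1.42 and 2.10 in every library. Several of these genes are also expressed by myeloid cells. Ebf1, Pax5, Il7r, Flt3, Rag1, Rag2, Cd79a, Ighm and Vpreb3 lay outside the readable segments.

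**Figure D4:**
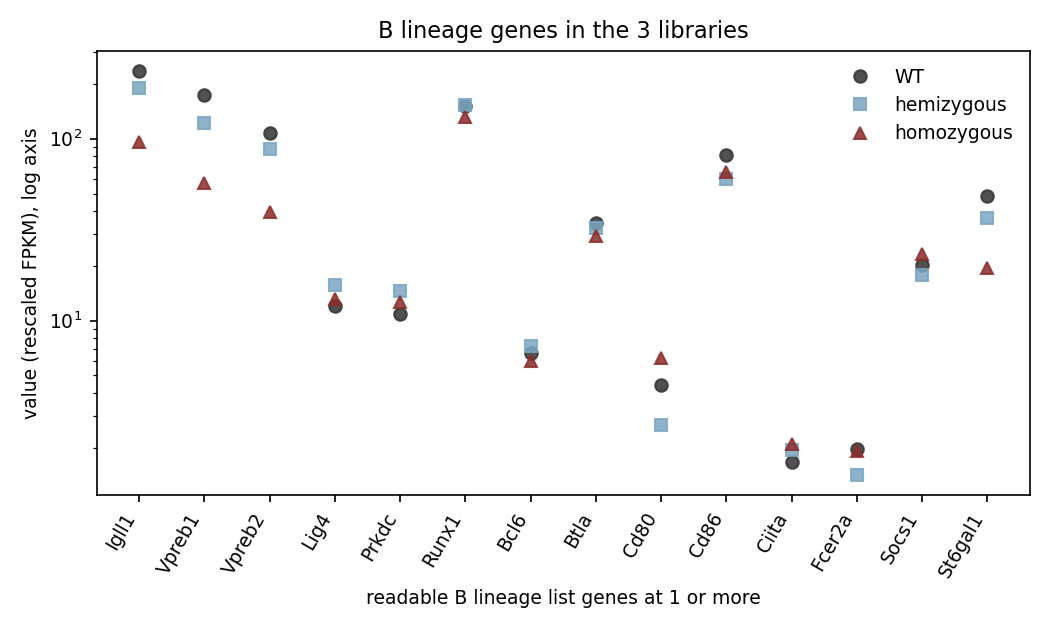
Values (rescaled FPKM, log axis) of the 3 members and of 11 other readable B lineage list genes that reached a value of 1, in the WT (circles), hemizygous (squares) and homozygous (triangles) libraries. Igll1, Vpreb1, Vpreb2 and St6gal1 are lowest in the homozygous library by more than 2-fold from WT, while Ciita and Fcer2a stay between 1.42 and 2.10.

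Other blood and liver cell types gave 13 measured genes of 94 listed, and 0 of the 13 passed 2-fold in any comparison, beside 4.64%, 2.99% and 4.4% of all genes measured, a share at which few or none of 13 genes would pass. The 4 erythroid genes read, Tfrc, Cpox, Car1 and Car2, summed to 3987 (WT), 4012 (hemizygous) and 3285 (homozygous). Most of the sum came from Car2 (2200, 2091 and 1786) and Tfrc (1280, 1414 and 1013). Car2 had the same order as the surrogate light chain genes, and Tfrc was highest in the hemizygous library. Car1 alone was highest in the homozygous library (64.7, 65.0 and 76.7). The 2 myeloid genes read, Cebpd and Mmp8, summed to 45.6, 39.7 and 35.8, in the same order as the surrogate light chain genes. That order was the one of Cebpd (42.2, 36.1 and 34.1), while Mmp8 was highest in the hemizygous library (3.41, 3.64 and 1.61). Of the 3 megakaryocyte genes read, Gp5, a platelet glycoprotein, stood at 16.5, 17.7 and 30.1. The sum of the 3 was 25.8, 24.3 and 38.7, with most of it from Gp5 in every library. The log2 ratios of value + 1 for homozygous versus WT were 0.83 for Gp5, -0.17 for Gp1bb and 0.0031 for Mylk. Of the vessel wall list 2 of 10 genes could be read, Col4a1 and Col4a2, and their sum was 52.6, 68.1 and 99.3, which is opposite in order to the surrogate light chain genes. The defining vessel markers Pecam1 and Cdh5 lie outside the segments. The mitochondrial share of the values was also lowest in the homozygous library (45.2%). The part of these differences between the libraries in the lower Igll1, Vpreb1 and Vpreb2 values was not tested.

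The readable genes most like the surrogate light chain genes were found by distance in the plane of the log2 ratios to WT, hemizygous and homozygous, from the mean of the 3 members, among 819 genes that reached a value of 5. The members themselves lay 0.09 (Vpreb2), 0.15 (Igll1) and 0.22 (Vpreb1) from that mean. Of the other genes 3 lay as near, Mrpl39 (0.15), St6gal1 (0.17) and Popdc2 (0.20). Mrpl39, a protein of the mitochondrial ribosome, stood at 20.01 (WT), 14.1 (hemizygous) and 6.29 (homozygous). Popdc2, a membrane protein that binds cyclic AMP, stood at 27.4, 22.7 and 8.31. After a gap came Gm15879 (0.41), Prpf31 (0.42), Fabp4 (0.45), Cd200 (0.52), Rpl39l (0.53), mt-Nd3 (0.54) and Gm16147 (0.57). Of these 10 genes 6 lie on chromosome 16, which also holds 51.7% of the genes compared. Gm16147 rested on about 6.38 (WT) and 1.06 (homozygous) fragments, and Prpf31 lies in the chromosome 7 segment, the least certain of those kept. Beside mt-Nd3, the rest of the 13 mitochondrial mRNAs were also lower at both steps. The log2 ratios of the 13 ran from -0.48 (mt-Nd3) to -0.06 (mt-Nd5) for hemizygous versus WT. For homozygous versus WT they ran from -0.90 (mt-Nd3) to -0.69 (mt-Nd5). The likeness is over 3 libraries and both axes share the WT library, so it is a description.

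**Figure D5:**
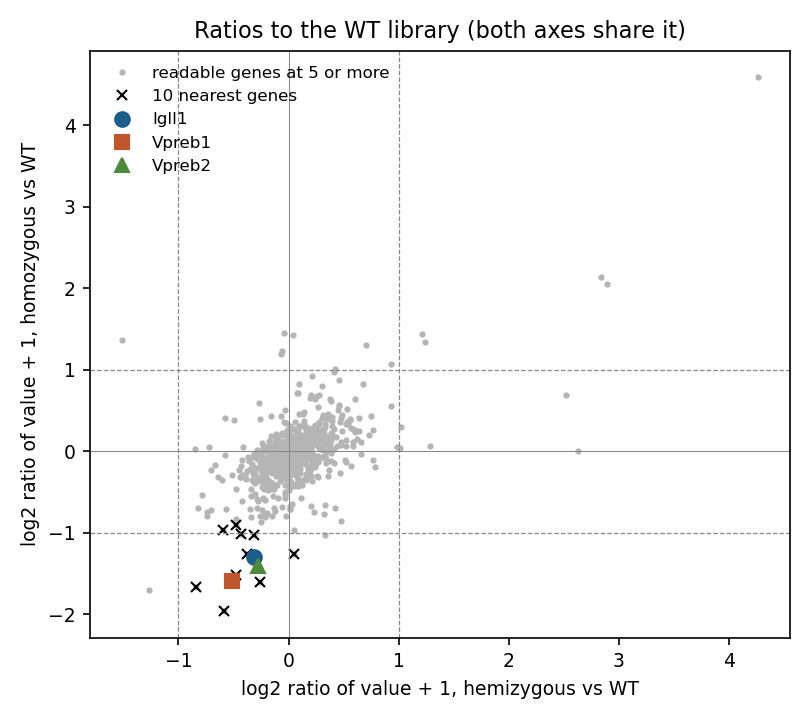
Log2 ratio of value + 1 to WT for the hemizygous (horizontal axis) and the homozygous library (vertical axis), for readable genes that reached 5 (grey), the 10 genes nearest to the members (crosses) and the 3 members, with dashed lines at 2-fold. Igll1, Vpreb1 and Vpreb2 lie at the lower edge of the cloud, at -1.30, -1.59 and -1.41 on the vertical axis and -0.31, -0.51 and -0.28 on the horizontal axis.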

How the data were processed

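Per the file headers, the deposited values are FPKM per gene with a status. The submitters' processing notes name the tools TopHat2, Bowtie2 and Cufflinks, without version, and the build mm9. No source used here gives the annotation or the strand setting, and whether the annotation matched mm9 was not tested. Rows with status OK were kept (highest per identifier) and divided by 1 factor for all libraries. Gene order, types and transcript lengths came from GENCODE M21 (GRCm38), which holds 36216 of 37899 identifiers with status OK.

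Many genes that all cells express are listed at or near 0. On each chromosome the most likely break in the frequency of high protein-coding genes (deposited FPKM averaging 200000 or more) was fitted, and segments before a break with a log likelihood gain of at least 5 were kept, with the mitochondrial genes. Constitutive genes and large gene families were left out of that fit.

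Values times the transcript length less 199 bases were whole multiples of 1 unit, within 0.05, for 71.0%, 69.0% and 71.1% of 818, 893 and 837 low values in the WT, hemizygous and homozygous libraries, where chance gives 10%. The unit was treated as 1 fragment, with a fragment length of 200 bases. Fragments of the members assume coding transcripts of 870 (Igll1), 766 (Vpreb1) and 759 (Vpreb2) bases. Igll1 also has a transcript of 2161 bases that keeps introns, which would give more fragments. Vpreb1 also has transcripts of 406 and 415 bases, which would give fewer fragments and wider intervals. Intervals cover counting error only.

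Comparisons used the log2 ratio of value + 1 for genes that reached 1 in one library of the pair. Named genes were the members, measured B lineage list genes, the 3 nearest readable genes on each side of a member and the 10 genes nearest in ratio. One gene that met this rule is not reported here. The members and lists were chosen with earlier results of these data known. No test between genotypes was possible. Python 3.11.15, numpy 2.4.6, pandas 2.3.3, scipy 1.17.1 and Biopython 1.88 were used, and the scripts were tested on simulated data. Alternatives were the pseudocount, scaling, minimum, rows per identifier and segments.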

Additional observations from a re-analysis of the deposited data

How the results depend on the processing

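The members were chosen for their lower values in these same libraries, so the sign of their ratios was set by that choice and is not support. Summing the rows per identifier left all 9 log2 ratios unchanged. All 54 values of the 9 log2 ratios of Igll1, Vpreb1 and Vpreb2 under the alternatives stayed below 0, and 50 stayed within the counting interval of the main value. The other 4 came from sum scaling over all genes, which gave -0.87 for Igll1, -1.17 for Vpreb1 and -0.99 for Vpreb2 for homozygous versus WT and -0.72 for Igll1 for homozygous versus hemizygous, where it also took Vpreb1 (-0.82) and Vpreb2 (-0.87) below 2-fold. The summed family level, tried under scalings chosen after seeing the data, moved from -1.43 to -0.997 (log2, homozygous versus WT) under the same scaling. The number of genes past 2-fold was 45 for homozygous versus WT, 29 for hemizygous versus WT and 43 for homozygous versus hemizygous. It was 11, 6 and 9 with a pseudocount of 5, 24, 11 and 19 with a minimum of 5, and 28, 14 and 26 on chromosome 16 alone, where fewer genes were counted. A pseudocount of 0.1 gave 47 for hemizygous versus WT and 76 for homozygous versus hemizygous. Sum scaling over all genes changed the split for homozygous versus WT from 23 higher and 22 lower to 47 and 10, for hemizygous versus WT from 20 and 9 to 24 and 6, and for homozygous versus hemizygous from 16 and 27 to 30 and 15. Leaving out the chromosome 7 segment, chosen after seeing the data, gave 41, 26 and 43 genes. No paired analysis was possible because each genotype had 1 library. The cause of these differences between settings was not tested.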
